A study of Mus musculus with 3 samples.

Results

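The olfactory receptor genes that lie on mouse chromosome 2 outside its large central receptor cluster form a pair of separate groups, one near 36 Mb and one near 111 Mb. The members were taken from the authors' table of mapped promoter positions: chromosome 2 positions on either side of the central cluster, with a gene name that occurs once in the table, without unannotated pseudogenes and without Olfr50. This gave 58 of the 1085 positions in the table, 25 near 36 Mb and 33 near 111 Mb, and left out 5 of the 63 outer positions. No measured score entered this rule, but it was set with earlier results of these data known. The sources used here do not say whether the authors placed the positions with these arrays, so a signal at a position is described and not taken as independent of how it was placed.

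The study mapped the 5′ ends of receptor transcripts in olfactory epithelium, the sheet of sensory tissue in the nose. RNA ligase-mediated RACE (RLM-RACE), which tags the capped 5′ end of an mRNA with an oligonucleotide, was followed by reverse transcription with degenerate primers against receptor coding sequence. Tiling arrays were then hybridised with the amplified product. The Stringent group is 1 array with the product of nested PCR, and the High Coverage group is 2 arrays with products of PCR without nesting. All samples were pools of olfactory epithelia from 5 C57/Bl6 mice of 6 to 8 weeks, with no treatment or altered gene named in the labels. The file headers name the input of High Coverage 1 as female and that of High Coverage 2 as male, so array and sex cannot be told apart. The deposited value is a MAT score per probe. MAT predicts each probe's brightness from its sequence and scores how far the probes of a short window exceed it, so a score is relative to the other probes of the same array. With 1 array against 2, no test between the groups was run, and positions are not replicates of a condition. Values of a member on the 3 arrays are given in the order Stringent, High Coverage 1, High Coverage 2 unless each is named. Shares carry exact Clopper-Pearson 95% intervals that cover counting error over positions only.

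Olfactory receptors are G protein-coupled receptors that bind odorants on the cilia of olfactory sensory neurons. Each mature neuron expresses very few genes of the family, usually from one allele, so a receptor's transcript in whole epithelium comes from a small fraction of the cells. In such a bulk product, fewer cells that express a receptor and less RNA per cell cannot be told apart. A typical receptor gene has an intronless coding sequence behind one or a few short untranslated exons, which is why promoters have to be mapped from the 5′ end of the transcript rather than read from the coding start. The amplified product holds receptor transcripts by design, and cell type markers of the tissue were not analysed here.

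The members lie in tandem with spacings of 5734 to 108200 bp. The 36 Mb group runs from Olfr335 at 36156264 to Olfr368 at 37181802 (mm9), with 18 positions on the plus and 7 on the minus strand and a median distance of 41667.5 bp between neighbours. The 111 Mb group runs from Olfr1275 at 111075240 to Olfr1318 at 111994572, with 13 plus and 20 minus positions and a median distance of 23062 bp. The closest neighbours are Olfr351 and Olfr352, which point away from each other with starts 5734 bp apart. The longest stretch on one strand holds 12 members, Olfr1303 to Olfr1316, all on the minus strand. The nearest named positions outside the groups on chromosome 2 are at 85179407 and 90238151, and 226 positions lie between the groups.

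The reference sequences show how alike these genes are at the start of their coding sequence. Of the 58 members, 56 matched a protein-coding gene of the RefSeq table and 50 had a sequence window around the annotated start (GRCm38.p6, 250 bases before it and 50 after). In 47 of the 50 windows (94.0%) the first annotated base begins an ATG, against 71.2% of 898 windows of other receptors and 5.83% of 32851 windows of all genes. These windows therefore lie at the coding start and not at the position mapped by RACE, and no motif in them can be set beside a mapped position. The first coding bases of 4 neighbours described together in the results are shown first, in genomic order, with the ATG in capitals. They lie on the minus strand at chr2:111538238-111538287, chr2:111565393-111565442, chr2:111622023-111622072 and chr2:111645946-111645995 (GRCm38.p6).
Olfr1294: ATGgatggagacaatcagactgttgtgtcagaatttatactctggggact
Olfr1295: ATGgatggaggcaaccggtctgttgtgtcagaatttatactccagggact
Olfr1297: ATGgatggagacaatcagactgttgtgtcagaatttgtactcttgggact
Olfr1298: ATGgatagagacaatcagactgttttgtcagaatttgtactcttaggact
Compared base by base without gaps, the 6 pairs among them are identical at 40 to 48 of these 50 bases. The median was 26 identical bases over the 1081 pairs of members that start with ATG. A shift between similar sequences lowers such a count. The next 4 are the member of the 36 Mb group with a region on all arrays and the highest scores, and 3 members that scored far higher on Stringent. They lie at chr2:36734323-36734372 (plus strand), chr2:36527414-36527463 (plus), chr2:36928063-36928112 (minus) and chr2:111257117-111257166 (plus), again with the ATG in capitals.
Olfr347: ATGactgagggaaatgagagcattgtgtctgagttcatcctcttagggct
Olfr342: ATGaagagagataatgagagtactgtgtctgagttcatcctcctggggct
Olfr355: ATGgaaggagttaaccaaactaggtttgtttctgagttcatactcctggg
Olfr1276: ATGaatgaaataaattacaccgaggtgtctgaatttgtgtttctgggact
In 2 pairs, Olfr341 with Olfr345 and Olfr358 with Olfr360, all 50 bases are the same.

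At the mapped positions, most members carried signal on the Stringent array and fewer did without nesting. On Stringent the authors called a region that reached into the 100 bp around 39 of the 58 positions (67.2%, 53.7 to 79.0), where 61.7% of all named positions had one. On High Coverage 1 it was 16 positions (27.6%, 16.7 to 40.9) against 36.4% of all, and on High Coverage 2 also 16 (27.6%) against 43.6%. The interval of the members held the value of all positions on Stringent and High Coverage 1, and lay below it on High Coverage 2. The 36 Mb group had regions at 16, 6 and 4 of its 25 positions on the 3 arrays, and the 111 Mb group at 23, 10 and 12 of its 33. The lowest share was thus that of the 36 Mb group on High Coverage 2 (16.0%, 4.54 to 36.1), beside 36.4% (20.4 to 54.9) in the 111 Mb group, and those intervals overlap. The region lists were called at thresholds that stand for unlike MAT p-values, 1.75e-09, 1.72e-06 and 2.97e-07 in the order of the arrays, so the counts of different arrays are not at a like cutoff.

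**Figure D1:**
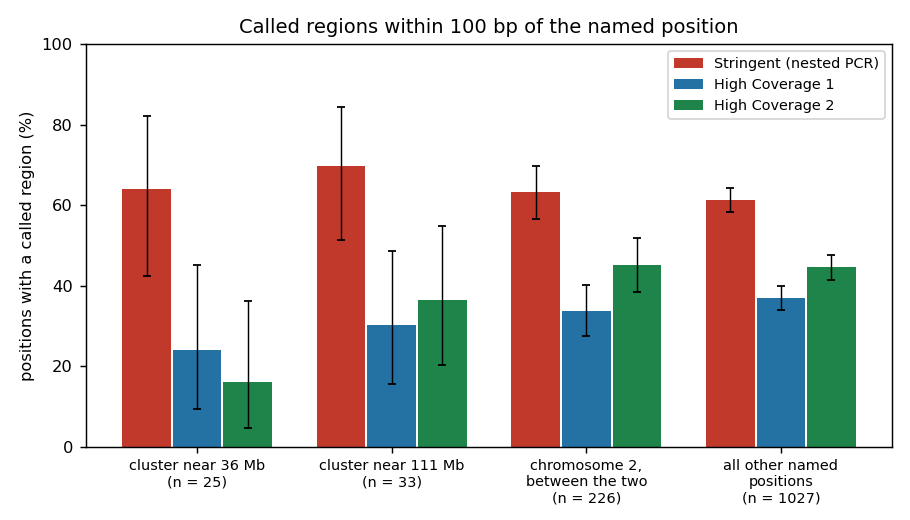
Share of named positions with a called region within 100 bp (vertical axis, percent) on each array, for both groups of members, for the chromosome 2 positions between them and for all other named positions; bars are shares and lines their exact 95% intervals. Stringent is at 64.0% and 69.7% in the groups near 36 and 111 Mb, and High Coverage 2 at 16.0% and 36.4%.

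A region on every array was found at 7 members (12.1%, 4.99 to 23.3; 17.3% of all positions), and on Stringent alone at 23 (39.7%, 27.0 to 53.4; 28.3% of all). The 7 are Olfr347, Olfr368, Olfr1275, Olfr1284, Olfr1294, Olfr1297 and Olfr1298. At Olfr368 the regions do not all coincide: the Stringent one runs from -38 to 184 bp, and those of High Coverage 1 and 2 lie upstream, at -254 to -36 and -176 to -46 bp. High Coverage arrays alone marked 8 members (13.8%; 19.5% of all): Olfr338, Olfr344, Olfr346, Olfr1281 and Olfr1316 on High Coverage 1, Olfr365 and Olfr1279 on High Coverage 2, and Olfr1303 on both. No array had a region at 11 members (19.0%; 18.8% of all). The longest runs of members with a Stringent region were these: all 9 members from Olfr350 to Olfr360 and all 12 from Olfr1282 to Olfr1302 had a region there. High Coverage 1 had none at the 8 members from Olfr348 to Olfr355.

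**Figure D2:**
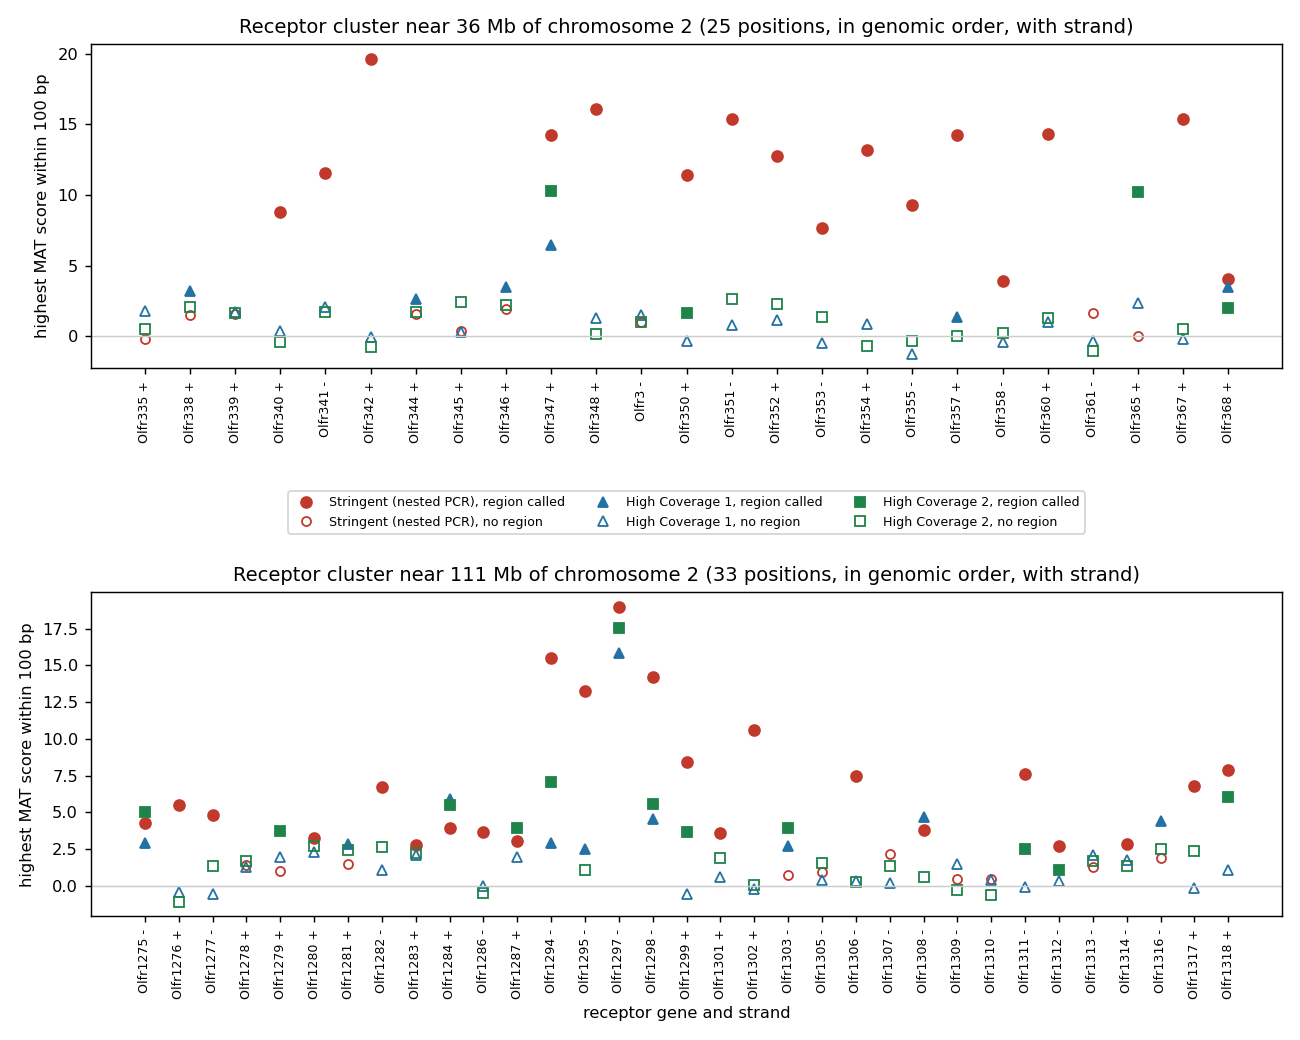
Highest MAT score within 100 bp of each of the 58 positions (vertical axis), with members in genomic order and their strand (horizontal axis), for Stringent (circles), High Coverage 1 (triangles) and High Coverage 2 (squares); filled symbols have a called region. Olfr1297 is high on all arrays at 15.8 to 19.0, while Olfr342 has 19.7 on Stringent and values below 0 on both High Coverage arrays.

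Regions on all arrays were found at 3 of a run of 4 minus-strand neighbours, Olfr1294, Olfr1295, Olfr1297 and Olfr1298, chosen for description after their values were seen. Olfr1297 at 111466659 had the highest score of the members without nesting, with 19.0 on Stringent and 15.8 and 17.5 on the High Coverage arrays. Each of these lay at the 99.7 percentile of its array's scored probes. Olfr1298 at 111489475 scored 14.2, 4.55 and 5.58, and Olfr1294 at 111380389 scored 15.5, 2.95 and 7.09. Olfr1295 at 111409851 had 13.3, 2.53 and 1.07, the last without a region. Their Stringent scores thus lay within 13.3 to 19.0, whereas without nesting Olfr1297 stood well above its neighbours on both arrays. Their coding starts share 40 to 48 of 50 bases, and the part of shared sequence in these values was not tested.

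In the 36 Mb group, Olfr347 at 36587326 was the counterpart, with 14.3, 6.49 and 10.3 and percentiles of 98.1 to 98.8. The other members whose lowest percentile over the arrays was among the 10 highest had moderate scores. A choice by lowest percentile itself favours members that rank high on every array. Olfr1275 had 4.31, 2.95 and 5.06. Olfr1284 had 3.95, 5.89 and 5.48, at the 94.3, 98.3 and 97.1 percentile. Olfr1287 had 3.05, 1.97 and 3.96, and Olfr1280 had 3.26, 2.28 and 2.70. Olfr1283 and Olfr346 completed the 10, with lowest percentiles of 93.1 and 92.8. Of these, 8 lie in the 111 Mb group and only Olfr346 and Olfr347 near 36 Mb.

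Because scores of different arrays have no common scale, they were compared as percentiles of the array's own scored probes. A member's highest score reached a median percentile of 94.3 (93.6 to 95.8, order-statistic interval) on Stringent and 90.9 (88.6 to 93.1) on High Coverage 2, and the interval of the median on High Coverage 1 was 83.3 to 93.8. All other named positions had medians of 94.4 on Stringent, 91.4 and 92.5 on the High Coverage arrays. The highest of a median of 37 probes is high by construction, so the percentiles serve to compare positions and not to call them. The Stringent percentile was above both High Coverage percentiles at 34 members (58.6%; 54.3% of all scored positions) and below both at 14 (24.1%; 30.7%). A difference was called where Stringent and the mean of the High Coverage arrays lay more than 34.3 points apart, the 95th percentile of the gap between the High Coverage arrays over all scored positions.

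Under that limit 4 members stood higher on Stringent (6.90%, 1.91 to 16.7), against 8.80% of all scored positions, and 0 stood lower (an upper bound of 6.16%), against 1.20%. Olfr355 at 36784436 had scores of 9.29, -1.21 and -0.34, a difference of 59.0 points. Olfr1276 at 111094628 had 5.52, -0.40 and -1.07, a difference of 54.9 points. Olfr361 at 36947992 had 1.68, -0.31 and -1.03, or 49.4 points, without a region on any array and with only 12 probes in its window. Olfr342 at 36380446 had the highest Stringent score of all members, 19.7, with -0.04 and -0.77 on the High Coverage arrays, or 46.1 points. In these 4 members both High Coverage arrays lay below 0, and the Stringent array lay above both. Olfr1286, Olfr354, Olfr358 and Olfr1302 followed with differences of 33.8 to 29.8 points, within the limit. The count depends on scale and limit. With the limit at the 90th percentile of the gap it was 12 members (20.7%; 14.3% of all scored positions), and with scores scaled by each array's median and median absolute deviation, 26 members stood higher (44.8%; 40.7% of all scored positions), on that scale's own limit.

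**Figure D3:**
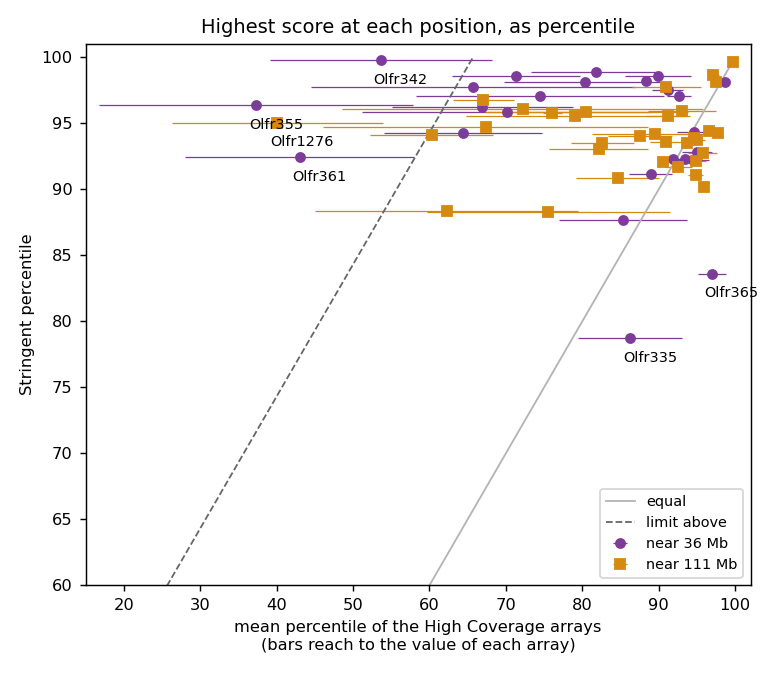
Percentile of the highest score on Stringent (vertical axis) against the mean percentile of the High Coverage arrays (horizontal axis) for the 58 members by group; horizontal lines reach to the value of each High Coverage array, the solid line marks equal values and the dashed line the limit of 34.3 points. Olfr355, Olfr1276, Olfr361 and Olfr342 lie above the dashed line.

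In the other direction the differences in points were small, but members that rank high on Stringent leave little room above them. Scores could still lie far apart. Olfr365 at 37056192 had the lowest value, with scores of 0.04, 2.36 and 10.2 and a difference of -13.3 points. Its 477-bp region on High Coverage 2 has no counterpart on the other arrays. Olfr335, the first member of the 36 Mb group, had -0.17, 1.78 and 0.50 (-7.52 points), and Olfr1303 had 0.77, 2.70 and 3.95 (-5.80 points). Olfr1279, Olfr1284, Olfr1316, Olfr1281 and Olfr338 lay between -3.76 and -2.31 points. None of these 8 passed the limit, which no member could pass in this direction.

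At single members the High Coverage arrays also differed from each other. They lay more than 34.3 points apart at 6 members (10.3%, 3.89 to 21.2), where the limit itself sets 5.00% of all scored positions. The median gap between them was 8.09 points (4.06 to 13.7) over the members and 4.16 (3.63 to 4.87) over the other named positions, with 13.7 (4.15 to 21.1) near 36 Mb and 5.75 (2.20 to 10.9) near 111 Mb. Olfr1299 at 111501534 had the widest gap, with scores of -0.52 on High Coverage 1, 3.64 on High Coverage 2 and 8.46 on Stringent. Only High Coverage 2 and Stringent had a region there. Olfr1277 had -0.57 and 1.34, Olfr353 -0.46 and 1.40, and Olfr355 -1.21 and -0.34, each higher on High Coverage 2. Olfr354 with 0.91 and -0.65 and Olfr1310 with 0.41 and -0.64 were higher on High Coverage 1. So the wide gaps did not all run one way. Apart from Olfr1299, these members scored below the calling thresholds on both High Coverage arrays. At Olfr365, with 2.36 and 10.2, High Coverage 1 minus High Coverage 2 was only -3.69 points. A gap in points is therefore not a gap in score.

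Across the 58 members, the correlation between scores of the High Coverage arrays was 0.780 (Pearson's r) and 0.553 (Spearman's rho). Stringent correlated with High Coverage 1 at r = 0.163 and rho = -0.15, and with High Coverage 2 at r = 0.201 and rho = -0.02. These describe positions that share an array, its probes and in part their sequence, and are not tests over samples. Olfr1297 alone carried much of them: without it r was 0.581 between the High Coverage arrays and -0.10 and 0.01 between Stringent and High Coverage 1 and 2. The groups differed: near 36 Mb Stringent had rho = -0.26 with each High Coverage array, and near 111 Mb it had -0.04 with the first and 0.30 with the second.

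The 6 members whose highest percentile over the arrays was lowest all lacked a region at the position. The choice nearly sets this, as their scores lay below the calling thresholds of 2.52, 2.53 and 2.99. Olfr1310 at 111858287 never exceeded the 88.3 percentile, with scores of 0.44, 0.41 and -0.64. Olfr1305 had 0.96, 0.39 and 1.56, Olfr1309 had 0.44, 1.47 and -0.29, Olfr3 had 1.06, 1.51 and 1.03, and Olfr1278 had 1.45, 1.28 and 1.72. Olfr361 is the sixth. Single values lower than these occurred elsewhere, as at Olfr355 on High Coverage 1 and Olfr1276 on High Coverage 2. Of the 11 members without a region at the position, 11 had a called region within the next 10 kb downstream on Stringent. On High Coverage 1 it was 11, and on the second array 10. Of all positions, with or without a region there, 88.4%, 96.0% and 93.7% had one. Those shares count stretches cut at the nearest named position on either side, so they are not a like comparison.

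Around the position, the Stringent score rose just downstream and stayed at background upstream. The median over members of the mean score was -1.08 between 100 and 50 bp upstream, 1.95 over the 50 bp that follow the position and 3.86 between 50 and 100 bp downstream. The value at 50 to 100 bp was 7.97 near 36 Mb and 3.27 near 111 Mb, beside 3.20 over the other named positions. From 200 to 250 bp it was still 4.66 near 36 Mb, and it was -0.28 near 111 Mb. On the High Coverage arrays the medians were far smaller. From 100 to 50 bp upstream they were -0.79 and -0.75, in the 50 bp after the position -0.26 and 0.24, and from 50 to 100 bp downstream -0.07 and -0.18, where the other named positions had 0.21 and 0.65. Of the 54 members with probes on both sides, 50 had a higher mean score over 150 bp downstream than over 150 bp upstream on Stringent (92.6%; 94.5% of all positions). High Coverage 1 gave 38 such members (70.4%; 70.3%), and the second array gave 37 (68.5%; 74.6%).

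**Figure D4:**
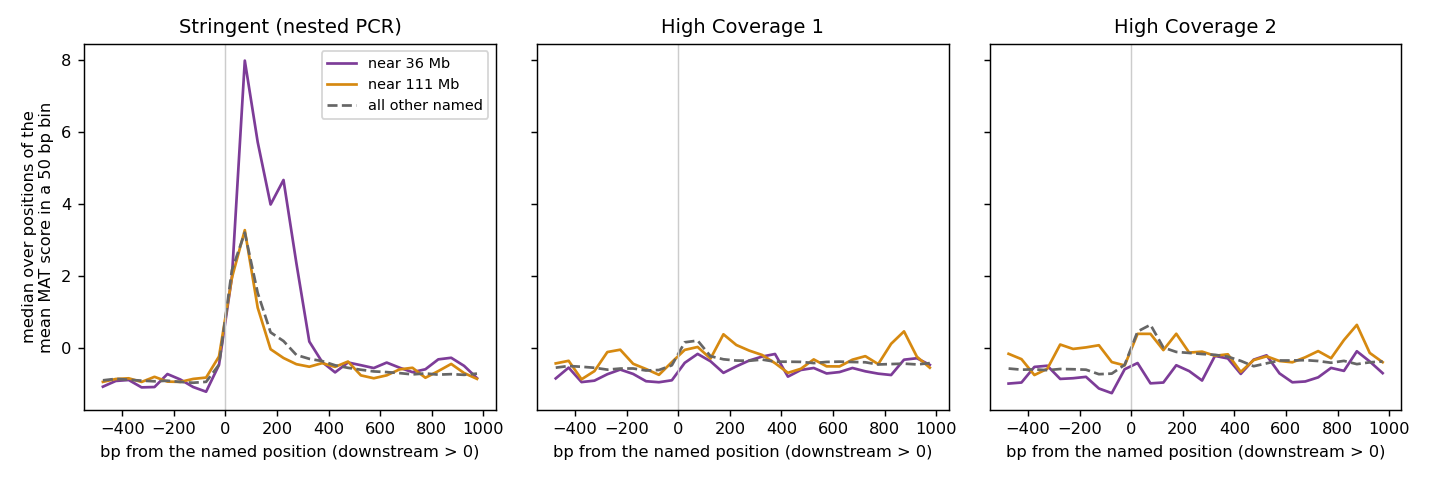
Median over positions of the mean MAT score in bins of 50 bp (vertical axis) against the distance from the named position in bp (horizontal axis, downstream above 0), one panel per array, for both groups of members and all other named positions. On Stringent the line of the 36 Mb group peaks at 7.97 and that of the 111 Mb group at 3.27 between 50 and 100 bp, where the High Coverage medians of both groups lie between -0.98 and 0.39.

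The called regions on Stringent began near the position and ran downstream. On the High Coverage arrays the 5′ edges varied more, from -254 to 50 bp and from -176 to 54 bp. Where several regions reached into the window, the one with the highest score was taken. At Olfr1314, for example, the region from 15 bp adjoins another from -50 to 14 bp. On Stringent the 5′ edge lay at a median of 39 bp upstream of the position (-39.0; range -78 to 15 bp). The median length was 292 bp (56 to 1334) and the median score 8.98, with 14.3 in the 36 Mb group and 7.45 in the 111 Mb group. The score is the authors' own per region. Over the 630 regions at other named positions the medians were -44.0 bp, 318.5 bp and a score of 12.6. The region at Olfr342 had the highest score, 23.8, over 366 bp from 44 bp upstream (-44), and that of Olfr350 followed with 21.8 over 323 bp. At Olfr355 the region was the longest, 1334 bp with a score of 18.3. Olfr1301 showed how a window can miss the peak: its score within 100 bp was 3.60, but its region of 549 bp, which starts 5 bp upstream (-5), scored 18.5 over its length. A window 1 kb upstream of the position, set as a background, touched a region at 0 of 26 members with probes there on Stringent (upper bound 13.2%; 1.15% of all such windows). On the High Coverage arrays it was 4 (15.4%; 9.17%) and 3 (11.5%; 8.02%).

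Most of the regions in both groups lay further downstream. The search reached 10 kb, or the distance to the nearest named position on either side where that was shorter. A Stringent region beyond 100 bp downstream was found at 55 members (94.8%, 85.6 to 98.9; 88.4% of all positions). High Coverage 1 had one at all 58 (96.0% of all positions), and the second array at 56 (96.6%; 93.7%). Over equal lengths upstream it was 9 members (15.5%, 7.35 to 27.4; 32.9%), 24 (41.4%; 54.7%) and 19 (32.8%; 51.9%). On every array more members thus had a region on the side of transcription than upstream. Upstream shares were lower at the members than over all positions, and on Stringent and High Coverage 2 the interval of the members (21.0 to 46.3 on the latter) lay below the value of all. The sides are equal in bp but not in probes. Scored probes lay 500 to 450 bp upstream at 37 members and 950 to 1000 bp downstream at 55. At 1 kb upstream 26 of 58 members had probes, beside 611 of all 1085 positions. The part of probe cover in these differences was not tested.

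The strongest downstream region of a member on Stringent started at a median of 2799 bp from the position (quartiles 2175 and 3631.5 bp), was 524 bp long (479.5 to 568) and scored 16.0. It was sought within 10 kb, or up to the next named position downstream. In 31 of the 37 members that had both, it scored above the region at the position (83.8%; 76.0% of all positions with both). Some downstream regions directly adjoin the region at the position and still count as separate. At Olfr368 the region at the position ends at 184 bp and the strongest downstream one starts at 185 bp. The median place and score of the strongest downstream region were 3130 bp and 5.99 on High Coverage 1, and 2649.5 bp and 11.1 on the second array. In 30 of 55 members (54.5%; 54.1% of all positions) the strongest regions of Stringent and High Coverage 1 overlapped, in 27 of 54 (57.5% of all) those of Stringent and High Coverage 2, and in 27 of 56 (48.2%; 54.6%) those of both High Coverage arrays. All 3 arrays had it in the same place in 19 of 58 members (32.8%; 32.0% of all), 12 of them near 36 Mb. Which exon lies there was not analysed here.

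**Figure D5:**
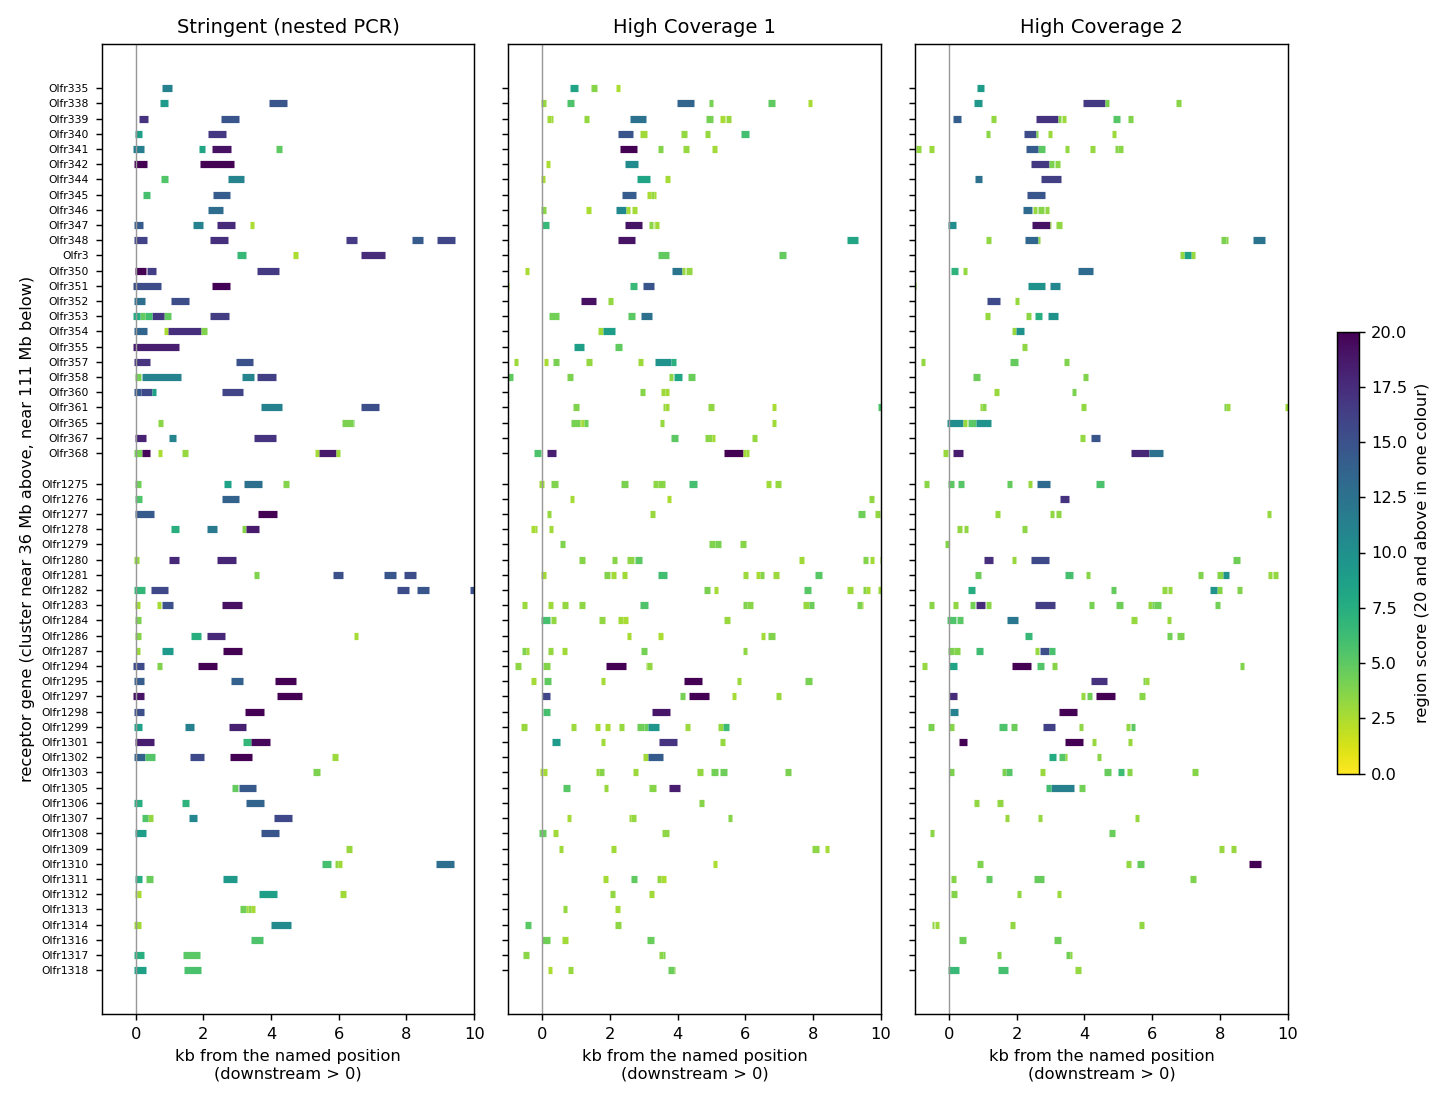
Called regions from 1 kb upstream to 10 kb downstream of each member's position (horizontal axis, kb), one line per member in genomic order with the 36 Mb group on top, one panel per array, coloured by the authors' region score. From Olfr340 to Olfr348 the strongest downstream segment starts between 1913 and 2783 bp on all arrays.

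The place of the strongest downstream region was most regular in the 8 members from Olfr340 to Olfr348, a stretch picked after its values were seen. In each of them all arrays had it in the same place, starting 1913 to 2719 bp from the position on Stringent, and 2180 to 2783 and 2175 to 2719 bp on the High Coverage arrays. Several of these members are also much alike at the coding start. Olfr341 and Olfr342 share 48 of the first 50 bases, and Olfr340 and Olfr341 as well as Olfr344 and Olfr346 share 46. The part of shared sequence in this regularity was not tested. At the positions themselves the same 8 members had regions in 5, 3 and 1 cases (61.7%, 36.4% and 43.6% of all positions). Olfr341 and Olfr345, whose first 50 coding bases are identical, show this. Their strongest downstream regions started at 2261 and 2287 bp on Stringent and scored 19.1 and 14.2. At the position Olfr341 scored 11.6 on Stringent with a region, and Olfr345 scored 0.37 without one. Olfr358 and Olfr360, the other identical pair, had 3.96 and 14.3 at the position on Stringent. Their strongest downstream regions started at 3585 and 2548 bp there and scored 16.3 and 16.0, and on High Coverage 1 they scored 8.13 and 3.66.

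The run from Olfr1294 to Olfr1298 was also regular downstream, with strongest regions that all arrays shared in 4 of 4 members and scores of 21.0 to 25.4, 18.8 to 25.6 and 17.2 to 36.2 on the 3 arrays. The highest was that of Olfr1294 on High Coverage 2, 1845 bp from its position. In contrast, the 9 members from Olfr1309 to Olfr1318 at the end of the group shared the place in 0 of 9 cases. That stretch was also picked after its values were seen. Over all positions 32.0% shared it, and in the whole 111 Mb group 7 of 33 members did (21.2%), so its absence is not particular to this stretch. Scores of the 9 were 3.10 to 12.8, 2.54 to 4.85 and 3.08 to 22.6 on the 3 arrays. The highest of these, 22.6, was that of Olfr1310 on High Coverage 2, 8862 bp from its position. At their positions 5, 1 and 3 of the 9 had regions (61.7%, 36.4% and 43.6% of all positions). The last member, Olfr1318, was among those, with scores of 7.87, 1.08 and 6.04.

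A Stringent region downstream was missing at 3 members. At Olfr355 the long region that begins at the position already spans the near stretch. Olfr1284 had its region at the position and, on High Coverage 2, a downstream region of score 12.2 at 1712 bp. Olfr1279 had neither on Stringent. At Olfr339, which counts as having no region at the position, a Stringent region of score 17.1 starts 104 bp downstream, just beyond the window. Neighbours that point at each other less than 20 kb apart, Olfr350 and Olfr351, Olfr357 and Olfr358, Olfr1276 and Olfr1277, and Olfr1281 and Olfr1282, can each take the other's regions into their downstream stretch, and these cannot be told apart.

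The sequence before the annotated start was shown for members whose annotated transcript begins ahead of an ATG. There are 3, Olfr1299, Olfr1313 and Olfr1318, and their 250 bases before the start come from chr2:111661203-111661452 (plus strand), chr2:112072584-112072833 (minus) and chr2:112155648-112155897 (plus), GRCm38.p6. Capitals mark matches to CCCNNGGG, the core bound by Olf1/Ebf factors, to TAATTA, a core of homeodomain sites, and to the TATA box TATAAA, each searched on both strands, so that TTTATA is TATAAA on the other strand.
Olfr1299: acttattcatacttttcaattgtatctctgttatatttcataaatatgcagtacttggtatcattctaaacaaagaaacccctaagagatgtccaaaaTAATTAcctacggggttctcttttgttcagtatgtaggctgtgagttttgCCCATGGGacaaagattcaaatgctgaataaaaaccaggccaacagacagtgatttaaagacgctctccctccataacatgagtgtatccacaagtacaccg
Olfr1313: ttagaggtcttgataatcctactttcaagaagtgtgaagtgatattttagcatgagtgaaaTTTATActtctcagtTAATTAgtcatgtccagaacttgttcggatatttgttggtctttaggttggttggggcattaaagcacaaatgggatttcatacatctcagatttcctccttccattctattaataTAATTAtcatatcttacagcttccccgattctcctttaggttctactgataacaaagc
Olfr1318: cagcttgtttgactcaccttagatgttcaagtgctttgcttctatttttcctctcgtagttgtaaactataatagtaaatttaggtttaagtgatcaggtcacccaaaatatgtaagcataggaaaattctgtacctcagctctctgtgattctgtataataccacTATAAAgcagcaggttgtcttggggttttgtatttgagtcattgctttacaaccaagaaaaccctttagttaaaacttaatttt
Olfr1299 holds the only CCCNNGGG match among the 50 windows of members (2.00%; 3.12% of other receptor windows and 13.7% of all windows). TAATTA was found in 13 of the 50 members' windows, 18.2% of other receptor windows and 5.29% of all windows, and TATAAA in 32.0%, 41.5% and 13.6%. The median A+T content was 65.5%, 64.7% and 47.3%, and motifs of A and T alone occur more often in such sequence. Most windows lie around the coding start and include the first 50 coding bases. These counts therefore describe that sequence and not the promoters. Of the 3 members shown, Olfr1299 and Olfr1318 had a region at the mapped position on Stringent and High Coverage 2, and Olfr1313 had none on any array, with scores of 1.27, 2.10 and 1.69.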

How the data were processed

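RLM-RACE products were hybridised to 3 tiling arrays, 1 Stringent and 2 High Coverage. The deposited score files hold a MAT score per probe, which the authors computed for each array alone (bandwidth 50, largest gap 30, minimum 5 probes; natural log), per the file headers. The authors called regions per array at score thresholds of 2.52, 2.53 and 2.99 with a false discovery rate of 0.00%, per the file headers. Positions are 1 per row in the deposited table, on build mm9 per the submitters' processing notes. The sources used here do not say how the positions were found.

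Probes with a score of 0 on all arrays (5.42% of 2313448) were read as unscored, which left 2188086. A member's value is its highest score within 100 bp, and a region counts with an overlap of at least 1 bp. Of the 1085 positions 1079 had scored probes, among them all 58 members. Groups were split at gaps of 1 Mb. Members named were those with the highest and lowest values by the rules given beside them, the ends of each group and the highest-scoring Stringent regions. The members and lists were chosen with earlier results of these data known. The comparison of proteins between members was planned and is not analysed here. Sequences are RefSeq's for GRCm38.p6, another build than the files', so no coordinate was carried between them. Depth does not apply to arrays, and their number limits the precision. The alternatives were other windows, scores, scales, limits, region lists and overlaps, each High Coverage array left out, and, chosen after seeing the data, other downstream reaches. Steps were tested on simulated data. Software was matplotlib 3.10.9, scipy 1.17.1, pandas 2.3.3, numpy 2.4.6 and Python 3.11.15.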

Additional observations from a re-analysis of the deposited data

How the results depend on the processing

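Of the alternatives, 37 values stayed within 1.5 times the reported count, or within the interval of the reported median, and 24 moved beyond. A lone share in brackets is that of all positions under the same setting. The number of members with a region was 23 (41.0%) on Stringent when only regions at or above the median score of their list counted, and then 10 (24.5%) on High Coverage 1 and 9 (30.7%) on High Coverage 2. With the same number of top regions on every array it was 10 on each High Coverage array (24.4% and 33.5%). Windows of 500 bp gave 30 (55.0%) on High Coverage 1, 24 (58.9%) on High Coverage 2 and 16 on all arrays, and the position itself gave 11 (25.2%) and 10 (29.0%) on the High Coverage arrays. The median percentile on High Coverage 1 was 81.2 with windows of 50 bp, 95.2 with 500 bp and 57.7 with mean scores, and on High Coverage 2 it was 85.7, 94.2 and 63.2. On Stringent, mean scores gave 91.8. Members higher on Stringent numbered 26 on the median and MAD scale, 15 with mean scores (25.9%; 23.5% of all scored positions), 8 with windows of 50 bp (13.8%; 11.7%), 12 with the limit at the 90th percentile (20.7%; 14.3%), and 8 to 9 when 1 High Coverage array was left out (9.64% and 11.4%). Members lower on Stringent numbered 1 with mean scores (22 of 1079 scored positions) and 1 with windows of 500 bp (23 of 1079). Regions on all remaining arrays numbered 10 to 13 when 1 High Coverage array was left out, since fewer arrays then had to agree. For the other moves the cause was not tested. Downstream reaches of 5 and 20 kb, chosen after seeing the data, left 52 to 58 members with a downstream region on any array. For these reaches, for regions on all remaining arrays and for the 16 on all arrays, the shares of all positions are not given here. No paired analysis was possible because the only Stringent array has no counterpart of each High Coverage number. Stringent has no replicate, so the spread of nested products is unknown, and region lists have unlike cutoffs.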

Other observations

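The 5 outer chromosome 2 positions left out of the members also carried signal. Olfr50 at 36646088, within the 36 Mb group, scored 16.5 on Stringent, then -0.77 and 2.03 on the High Coverage arrays. Olfr1290 is named at a pair of positions on opposite strands, with regions on all arrays at both. The one at 111329891 scored 15.9, 16.5 and 12.9, and the one at 111334082 scored 12.8, 0.56 and 0.79. The unannotated pseudogene at 36994870 scored -0.25, 2.48 and 5.30, with a region on High Coverage 2 only. The one at 111246604 scored 5.21, -0.28 and -0.76, with a region on Stringent only.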
